A study of Bos grunniens x Bos taurus and Bos grunniens with 12 samples.

Results

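Small RNA of milk exosomes from the Jeryak, a hybrid of the yak and Jersey cattle, was compared between June and December. Each month gave 3 libraries. All animals came from Hezuo in Gannan, were lactating and were 4 to 5 years old, and no treatment is named, so the Jeryak groups differ by the month of milking. Yak milk was sampled in the same months, with 3 libraries a month, and its libraries enter below only to share the estimate of the spread and to test where the hybrid differed. The study describes 3 Jeryak, but the labels tie no library to an animal, and whether the same Jeryak were milked in both months is not stated, so the p-values measure only the spread between these libraries. Exosomes were taken from the milk by density gradient centrifugation, and a hybrid holds RNA of both parent species while the names are those of cattle. An entry of the table was described if its norm value was at least 10 in at least 3 of the 6 Jeryak libraries. The norm value is the copy number of a sequence multiplied by 1 correction factor per library. This left 468 of 2263 entries. Of these, 220 were named after cattle miRNAs (bta), 138 after miRNAs of other species and 110 were predicted candidates (PC), with no miRBase name.

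A miRNA is cut from a hairpin precursor, and either arm of the hairpin (5p or 3p) can give the mature strand. The bases 2 to 8 of that strand, the seed, pair with messenger RNAs that the miRNA represses, so miRNAs with one seed are grouped as a family. Milk carries miRNAs inside exosomes, small vesicles shed by mammary epithelial cells and by the other cells found in milk, and the membrane protects the RNA from ribonucleases.

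The Jeryak libraries summed to norm values of 614699 to 782832. The lowest value above 0 was 0.711 to 2.47 in the June libraries and 0.0692 to 0.135 in the December libraries, so low entries could be seen further down in December. Sequencing depth and month cannot be told apart in this design. A value of 0 in June therefore means not detected in that library. Of the entries above 0, those of at least 10 were 505 of 613, 1000 of 1106 and 790 of 868 in the June libraries. In the December libraries they were 343 of 789, 401 of 930 and 329 of 715. The values of 1 library correlated with those of the others of its month at r = 0.814 to 0.838 in June and 0.959 to 0.977 in December, and between months at 0.350 to 0.503 (across entries, which are not independent replicates). December library 2 stood apart, since bta-miR-21-5p alone made up 34.2% of its summed norm value. Calls that were lost without it are mostly given as such, while most fold changes are given with it included.

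The sequences on which the cattle results turn are shown first, 5′ to 3′ and as the table lists them, with the seed in capitals. The first 5 fell in June or share a hairpin with one that fell, the next 3 are cattle miRNAs of high or moderate level that moved, and the last 2 rose.
bta-miR-150_R-1: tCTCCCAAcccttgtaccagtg
bta-miR-142-5p_L+2R-1: cCCATAAAgtagaaagcacta
bta-miR-142-3p_L+2R-2: gTAGTGTTtcctactttatgga
bta-miR-193a-3p: aACTGGCCtacaaagtcccagt
bta-miR-193a-5p: tGGGTCTTtgcgggcgagatga
bta-miR-16a: tAGCAGCAcgtaaatattggtg
bta-miR-26b: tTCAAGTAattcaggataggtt
bta-miR-186: cAAAGAATtctccttttgggct
bta-miR-2904_L-1R+3: gGAGCCTCggttggcctcgga
bta-miR-11987_L-1_1ss8TA: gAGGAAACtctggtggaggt
In these names, L and R with a number give how many bases the sequence is longer or shorter at its left or right end than in miRBase, and ss gives a substituted base. The seed is read from the sequence as listed, so the bases added at the left end of both miR-142 entries shift their seeds from those in miRBase.

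Among the cattle miRNAs, more fell than rose in June. Of the 220 bta entries tested, 50 fell (22.7%) and 16 rose (7.27%), 30% together. Over all 468 entries 64 fell (13.7%) and 168 rose (35.9%), together 49.6%. The median log2 fold change of June against December was −0.59 for the bta entries and 0.39 for all entries. The 3 June and 3 December values did not overlap for 82 bta entries (37.3%, against 55.6% of all entries), and of these 45 fell, 14 rose and 23 did not pass. An entry was called when the Benjamini-Hochberg adjusted p of limma was under 0.05. The split depended on scaling. With libraries scaled by the median ratio over bta entries, which shifted the fold changes up by a median of 0.28 on the log2 scale, 35 bta entries fell and 23 rose. Of the bta entries 6 reached the minimum value in no June library, so that they could only be lower in June. Without them 44 fell and 16 rose.

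**Figure D1:**
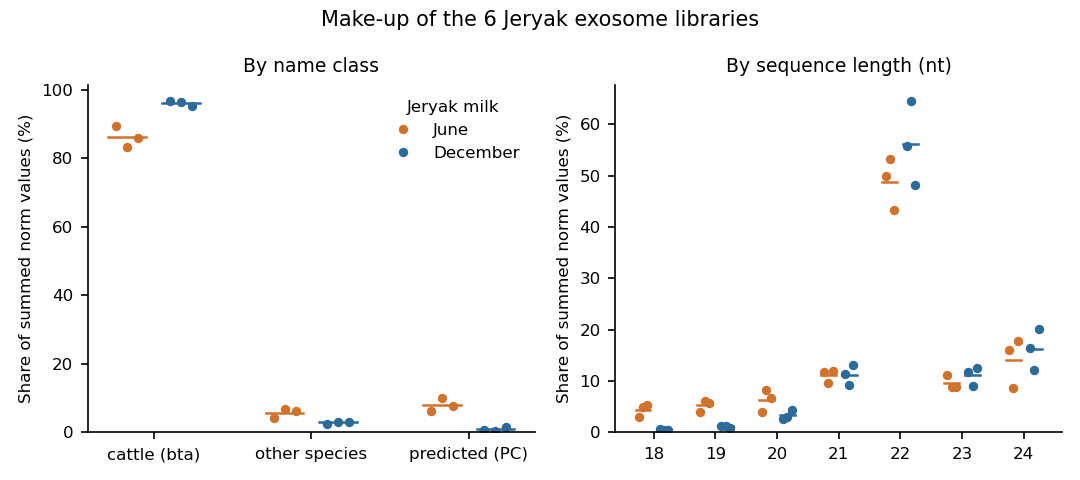
Share of the summed norm value (percent) in each of the 6 Jeryak libraries, by name class and by sequence length. The bta share lay at 83.3 to 89.4% in June and at 95.3 to 96.7% in December, and the sequences of 18 nt at 3.02 to 5.31% and 0.418 to 0.641%.

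Several miRNAs of blood leukocytes fell. bta-miR-150, a miRNA of mature lymphocytes, had a norm value of 0 in every June library and 35.8, 1058 and 103 in December (limma adjusted p = 1.2e-04). bta-miR-142-5p, a miRNA of blood cells, had 42.5, 23.2 and 0 in June and 249.6, 4882 and 256 in December. Its 3p arm was listed at 0 in June and had 19.3, 294 and 11.3 in December (limma adjusted p = 0.0028). Both months were apart for these entries, and December library 2 was by far the highest. The log2 fold change of bta-miR-142-5p was −6.06 (SE 1.39, limma adjusted p = 0.003), with December library 2 included. Its call and those of bta-miR-150, bta-miR-142-3p and bta-miR-132 were kept without that library. bta-miR-132, which is induced in activated immune cells and in neurons of mice and humans, was listed at 0 in June against 33.0, 249 and 16.4 in December (limma adjusted p = 2.6e-04).

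Calls for further miRNAs of immune cells rested on single libraries. bta-miR-155, a miRNA of activated lymphocytes and macrophages, had 18.5, 33.7 and 0 in June and 136, 926 and 72.2 in December, with no overlap. bta-miR-146a, which damps inflammatory signalling, had 75.8, 92.6 and 0 in June and 154.96, 2448 and 136 in December. hsa-miR-223-3p, a miRNA of neutrophils and monocytes, had 42.5, 29.5 and 0 in June and 119, 3149 and 56.1 in December. In each of the entries June library 3 was at 0 and December library 2 was highest. The log2 fold changes were −4.58, −4.28 and −4.66 (limma adjusted p = 0.019, 0.032 and 0.043). The calls were lost without December library 2 (limma adjusted p = 0.1, 0.15 and 0.2) and without June library 3 (limma adjusted p = 0.11, 0.13 and 0.22), and that of hsa-miR-223-3p also without June library 2 (0.057) and without December library 1 (0.052).

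In the whole leukocyte list 9 of 12 members tested fell and 0 rose, where 22.7% of all bta entries fell. The median log2 fold change of the list was −4.43, beside −0.59 over all bta entries. Of the 9, bta-miR-132, bta-miR-142-3p and bta-miR-150 were at 0 in every June library, so they could only be lower in June. The number that fell was 4 without December library 2 and 4 without June library 3. With the 6 Jeryak libraries fitted alone it was 6 and with no minimum value it was 4. By the criteria of the study, applied here to the tested entries, it was 0. Of the 3 that did not pass, miR-24-3p had a log2 fold change of −1.05, miR-181a of 0.21 and miR-181b of 0.47. Both arms of miR-142 with miR-150, miR-155 and miR-223, 5 members of the list that all fell, summed to norm values of 103, 86.3 and 0 in June. In December the sums were 559.7, 10309 and 499. Since each of the 5 fell, the direction of their sum was fixed by the choice. The sum over all 12, most of it bta-miR-21-5p, was 31967 to 56663 in June and 53670 to 286186 in December, and the months overlapped. Fewer leukocytes and less RNA per leukocyte cannot be told apart in bulk exosomes. The part of cell content in the other results was not tested.

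Of 7 entries tested from the list of the mammary epithelium, 1 fell and 0 rose, beside 22.7% and 7.27% of all bta entries. bta-miR-205, a miRNA of basal epithelial cells, had 9.24, 50.5 and 22.2 in June and 245, 155.1 and 161 in December. All June libraries lay under all December libraries, and the log2 fold change was −2.996 (limma adjusted p = 0.0055). The other 6, which include the miR-200 family that keeps cells epithelial, had log2 fold changes of −0.29 to 0.54 and did not pass. The median of all 7 was −0.15, and 0.14 under the scaling by the median ratio, which differ by about the shift of all entries.

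The red cell list was mixed. Of 8 members tested, 2 rose and 4 fell, beside 7.27% and 22.7% of all bta entries. bta-miR-486, a miRNA of the red cell lineage, had 121.97, 114 and 46.9 in June and 8.69, 11.7 and 6.47 in December, without overlap. It rose by a log2 fold change of 3.17 (limma adjusted p = 0.0024). bta-miR-451, the most abundant miRNA of red cells, had 53.6, 35.8 and 0 in June and 6.74, 5.46 and 16.2 in December, and the months overlapped (log2 fold change 0.41, limma adjusted p = 0.83). The other member that rose, bta-miR-363, lost the call without June library 3, December library 1 or December library 3 (limma adjusted p = 0.23, 0.15 and 0.12). The 4 that fell were bta-miR-15a, bta-miR-16a, bta-miR-16b and bta-miR-25.

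Of 11 listed stromal and endothelial miRNAs, 1 was not in the table and 6, with miR-126 and miR-199a among them, did not reach the minimum value in 3 libraries. Their highest single value was 27.7, of bta-miR-126-3p in June library 1. Of the 4 entries tested, 1 fell, a share near the 22.7% of all bta entries. bta-miR-145, a miRNA of smooth muscle and other mesenchymal cells, had 0, 12.6 and 0 in June and 236, 32.2 and 262 in December. The months were apart, and the log2 fold change was −5.74 (limma adjusted p = 0.0014). bta-miR-143, which lies in the same cluster, had 189, 341 and 350.4 in June and 2467, 305 and 776 in December, so the months overlapped (log2 fold change −1.56, limma adjusted p = 0.095). bta-miR-22-3p (log2 fold change 0.62) and bta-miR-152 (log2 fold change −0.58) did not pass either. The count that fell was 2 without June library 2 or without December library 2. By the criteria of the study it was 0. No miRNA of the muscle, liver and neural list reached the minimum value in 3 libraries (0 of 12, of which 6 were in the table), and the highest single value was 96.8, of bta-miR-122 in December library 2.

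**Figure D2:**
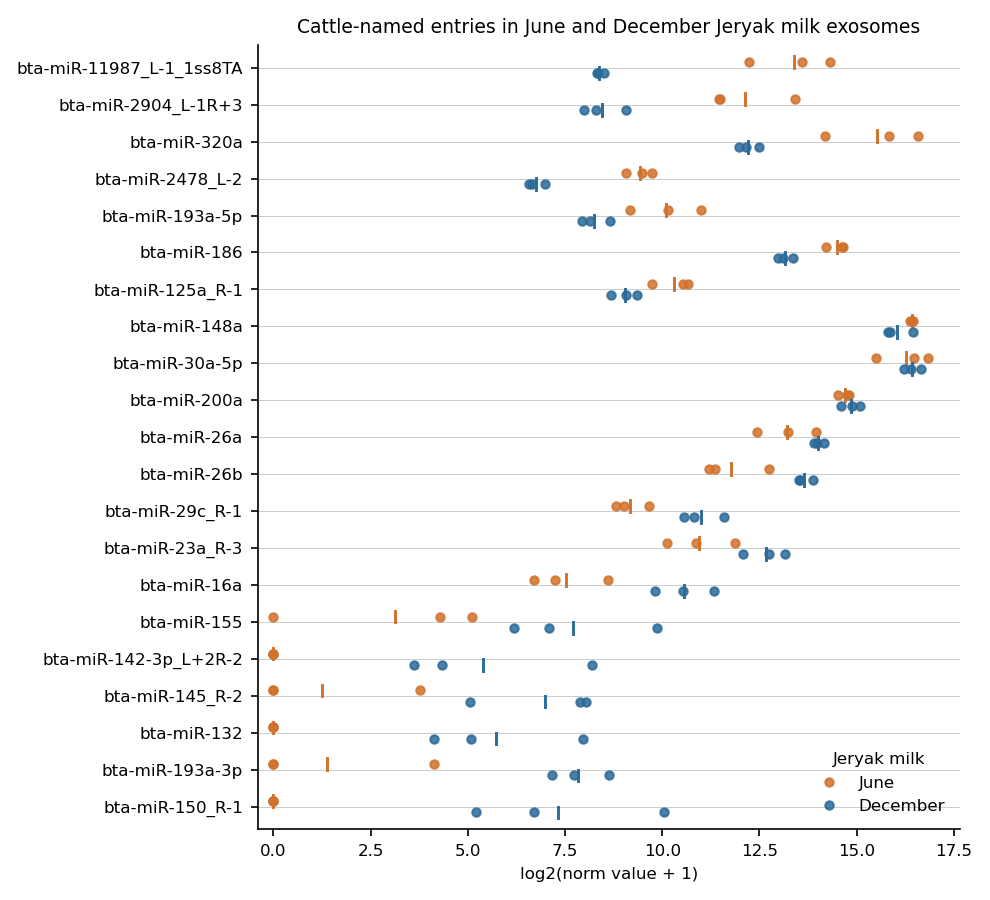
Norm values of 21 bta entries in the 6 Jeryak libraries, on a log2(norm value + 1) axis, 1 point per library and a tick for the mean of the log2 values, June and December in separate colours. bta-miR-150 lay at 0 in June and at 35.8 to 1058 in December, and bta-miR-11987 at 4781 to 20438 in June and 317 to 362 in December.

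The hairpin of miR-193a gave the only opposite change of its arms among 62 pairs with both arms tested. bta-miR-193a-3p had 16.6, 0 and 0 in June and 142, 209.7 and 395 in December. bta-miR-193a-5p had 571, 2029.5 and 1130.0 in June and 279, 246 and 401 in December. The months were apart for both arms, in opposite directions. The log2 fold change was −6.45 (SE 0.96, limma adjusted p = 1.3e-04) for the 3p arm and 1.85 (SE 0.42, limma adjusted p = 0.0029) for the 5p arm. The 3p arm made up 2.83, 0 and 0% of both arms in June and 33.7, 46.0 and 49.6% in December. bta-miR-365-3p, which shares a cluster with a miR-193 gene, had 24.9, 38.9 and 39.5 in June and 81.4, 122.1 and 93.4 in December, and did not pass although the months were apart (log2 fold change −1.50, limma adjusted p = 0.081). Of the 3 entries tested from the miR-193 and miR-365 list 1 rose and 1 fell.

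In the other pairs of arms, both fell in 4, both rose in 0, 1 arm alone passed in 24 and neither passed in 33. miR-148a, the leading milk miRNA of many mammals and a repressor of DNMT1, was one of those where 1 arm passed. Its 3p arm, bta-miR-148a, had 90126, 84361 and 87217 in June and 58871, 57473 and 89789.5 in December. The months overlapped (log2 fold change 0.38, limma adjusted p = 0.28). Its 5p arm, listed under the goat name chi-miR-148a-5p, had 654, 931 and 1458 in June and 307, 169 and 385 in December. It rose by a log2 fold change of 1.82 (SE 0.50, limma adjusted p = 0.0082). The 5p arm held 0.721 to 1.64% of both arms in June and 0.293 to 0.518% in December, without overlap. A similar contrast was seen for miR-30f, where chi-miR-30f-3p had 131, 272 and 239 in June and 70.7, 32.7 and 46.9 in December (log2 fold change 2.07, limma adjusted p = 0.0076) and bta-miR-30f did not pass (log2 fold change −0.23, limma adjusted p = 0.6).

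Among the cell-cycle and growth families, that of miR-15 and miR-16 fell in 3 of 4 members tested. The counts of this family and of those below stand beside 22.7% of all bta entries that fell and 7.27% that rose. Its seed AGCAGCA is that of miRNAs which repress cyclins. bta-miR-16a had 391.8, 149 and 102 in June and 906, 2562 and 1486 in December. All June values lay under all December values, and the log2 fold change was −3.05 (SE 0.69, limma adjusted p = 0.0029). bta-miR-16b had 66.5, 10.5 and 18.5 in June and 152, 587 and 243 in December (log2 fold change −3.50, limma adjusted p = 0.0059). bta-miR-15a had 62.8, 54.7 and 32.1 in June and 101, 371 and 121.8 in December (log2 fold change −1.77, limma adjusted p = 0.023), a call lost without December library 2 (0.12) and without June library 3 (0.079). A further 4 members did not reach the minimum value in 3 libraries. By the criteria of the study 1 of 4 fell.

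The clusters of miR-17 and its relatives up to miR-92 drive proliferation. Of their 12 members tested 4 fell and 1 rose, beside 22.7% and 7.27% of all bta entries. bta-miR-93 had 344, 314 and 294 in June and 825, 2232 and 753 in December, with no overlap (log2 fold change −1.81, limma adjusted p = 0.0081). bta-miR-25, from the same cluster, had 2020.0, 1987 and 1937 in June and 3407, 7319 and 3251 in December. It fell by 1.13 on the log2 scale (limma adjusted p = 0.011), and by 0.75 without December library 2. The June values of both lay close together. bta-miR-19b and bta-miR-20a fell too, but both calls were lost without June library 2, December library 2 or December library 3, that of bta-miR-19b also without June library 1 and that of bta-miR-20a also without June library 3. The count that fell was 2 without June library 2, December library 2 or December library 3, 2 with no minimum value or with the scaling by the median ratio, 1 with a weight per library and 0 by the criteria of the study. The median log2 fold change of the list was −1.17.

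Other families fell in part. bta-miR-26b, of a family that represses EZH2 in human cells, had 6878, 2639 and 2354 in June and 11743, 15158 and 11832 in December. June library 1 was the highest of its month and still lay under all of December (log2 fold change −1.87, SE 0.41, limma adjusted p = 0.0025). bta-miR-26a, with the same seed, had 15757, 5585 and 9618 in June and 18303, 16019 and 15437 in December. June library 1 lay within the range of December, and the entry did not pass (log2 fold change −0.81, limma adjusted p = 0.073). Without June library 1 it passed, so that 2 of the 2 members fell.

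bta-miR-29c, of a family that represses collagens, had 813, 517 and 448 in June and 1511, 1793 and 3094 in December. The months were apart (log2 fold change −1.82, limma adjusted p = 0.0014). Of the 3 members tested 2 fell, and 1 did so without June library 2, June library 3 or December library 3, where bta-miR-29a lost its call (limma adjusted p = 0.071, 0.063 and 0.068). The cluster of miR-23a, miR-27a and miR-24 is transcribed as 1 unit. bta-miR-23a had 1876, 3743 and 1115 in June and 6868, 9206 and 4329 in December (log2 fold change −1.71, limma adjusted p = 0.0042). bta-miR-27a-3p, a repressor of fat cell formation, had 752, 399 and 493 in June and 1463, 3629 and 1209 in December (log2 fold change −1.81, limma adjusted p = 0.0029). Each June library was under each December library for both. Of the miR-23, miR-27 and miR-24 list 3 of 6 fell, and 2 did without December library 1.

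The let-7 and miR-98 family, which holds back growth in development, had a median log2 fold change of −1.15, and 2 of its 9 members fell, a share near the 22.7% of all bta entries. bta-let-7g had 6285, 5076 and 4609 in June and 9445, 11009 and 9544 in December, and neither month overlapped the other (log2 fold change −0.92, limma adjusted p = 0.014). The number that fell was 6 without June library 1 and 4 without December library 3, 5 with a pseudocount of 10 or with a weight per library, and 1 with the scaling by the median ratio or by the criteria of the study. In the miR-30 family 3 of 6 members fell, but 0 did with the scaling by the median ratio and 1 did with libraries set to the same total over bta entries, with the 6 Jeryak libraries alone, with no minimum value or by the criteria of the study. bta-miR-30e-5p had 6866, 4735 and 6687 in June and 9598, 11245 and 11569 in December (log2 fold change −0.84, limma adjusted p = 0.01), again apart. bta-miR-30b-5p and bta-miR-30c lost their calls in turn, so that the count was 1 without June library 2, June library 3, December library 1 or December library 3.

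bta-miR-101, which represses EZH2 in human cells, had 1862, 754 and 2489.6 in June and 2818, 5053 and 7675 in December. The months were apart (log2 fold change −1.66, limma adjusted p = 0.01), but the call was lost without December library 3 (0.051). bta-miR-652 had 272, 596 and 651 in June and 1218, 1408 and 1213 in December (log2 fold change −1.43, limma adjusted p = 0.0039). bta-miR-324 had 9.24, 0 and 0 in June and 15.6, 45.6 and 49.9 in December (log2 fold change −3.97, limma adjusted p = 0.0041). Neither overlapped. bta-miR-21-5p, the most abundant miRNA of December library 2, had 52445, 39563 and 26514 in June and 94838, 267446 and 49239 in December. Its lowest December value lay within the June range, and its call (log2 fold change −1.50, limma adjusted p = 0.037) was lost without December library 1 (0.06), December library 2 (0.17), June library 2 (0.081) or June library 3 (0.15).

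Some cattle entries rose steeply. bta-miR-11987 had 4781, 20438 and 12448 in June and 317, 362 and 324 in December. bta-miR-2904 had 2870.1, 10977 and 2803 in June and 251, 534 and 316 in December. In both, June library 2 was highest and December stayed in a narrow range. The log2 fold changes were 4.996 (SE 0.66, limma adjusted p = 5.1e-05) and 3.67 (limma adjusted p = 6.2e-04). bta-miR-11980 had 384, 3347 and 11846 in June and 251, 257 and 213 in December. It spread widely in June (log2 fold change 3.37, limma adjusted p = 0.01) and was not called without June library 3 (log2 fold change 2.24, limma adjusted p = 0.059). bta-miR-2478 had 539.6, 714 and 851 in June and 100.3, 125.8 and 94.6 in December, without overlap (log2 fold change 2.69, limma adjusted p = 2.6e-04). bta-miR-2478 and bta-miR-2904 are on a list of names, of all classes, chosen as resembling rRNA, tRNA or other structural RNA. Of 42 entries tested under that list 31 rose and 1 fell, with a median log2 fold change of 3.34, where 35.9% of all entries rose. Of the 42, 10 reached the minimum value in no December library, and some hold the same values as another. With such repeats counted once and those 10 left out, 17 of 28 rose and 1 fell. Some of the 28, of miR-6236 and miR-6240, overlap in sequence and are not independent. Among all 337 entries that reached the minimum value in both months 48 (14.2%) rose. The list entry that fell was bta-miR-664b, whose call was lost without June library 3 (limma adjusted p = 0.062).

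Among conserved miRNAs that rose, bta-miR-320a had 18607, 96851 and 58017 in June and 5761, 3992 and 4554 in December (log2 fold change 3.32, limma adjusted p = 4.4e-04). bta-miR-186 had 19045, 25102 and 25799 in June and 10548, 8094 and 8836 in December (log2 fold change 1.34, SE 0.27, limma adjusted p = 0.0013). All June values lay over all December values for both, and the spread in June was wide for the first and narrow for the second. bta-miR-125a, a homologue of the developmental timing miRNA lin-4 of worms, had 1482, 1629.5 and 854 in June and 653, 537 and 406 in December (log2 fold change 1.28, limma adjusted p = 0.012), but not without December library 3 (0.051). bta-miR-125b, with the same seed, had 2090.2, 1274 and 1556 in June and 986, 852 and 1118 in December. The months were apart here too, yet it did not pass (log2 fold change 0.71, limma adjusted p = 0.073). Of the miR-10, miR-99, miR-100 and miR-125 list 1 of 6 members tested rose, 0 without December library 3 and 2 without June library 2. The entries of miR-99a and miR-100 list the same sequence and hold the same values. The name of the latter, bta-miR-100_R-1_1ss16AT, carries a substituted base, and that of bta-miR-99a-5p none. The sequence is thus that of miR-99a, and the entry does not measure miR-100.

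Some further calls were weak. bta-miR-423-5p had 3709, 12435 and 8317 in June and 2240.4, 3305 and 2899.5 in December (log2 fold change 1.39, limma adjusted p = 0.015), a call lost without June library 2 (0.067), June library 3 (0.056) or December library 1 (0.056). bta-miR-128 (log2 fold change 1.37, limma adjusted p = 0.041) and bta-miR-2285t (log2 fold change 1.39, limma adjusted p = 0.031) each lost their call when any of 4 libraries was left out. So did bta-miR-182 (log2 fold change 1.23, limma adjusted p = 0.039), of a cluster with miR-96 and miR-183 that is known from sensory cells. In that cluster 1 of 3 members rose, and 0 did without June library 1, June library 3 or December library 2. In the large family of miR-2284 and miR-2285, known from ruminants, 1 of 14 members rose, a share near the 7.27% of all bta entries. The count was 3 without June library 1 and 0 without June library 2, June library 3 or December library 3.

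The 10 highest bta entries held 52.2 to 64.0% of the summed norm value of a library, and of these bta-miR-21-5p fell, bta-miR-320a and bta-miR-186 rose and 7 did not pass. The share that passed equals the 30% of all bta entries. bta-miR-30a-5p, of the highest level with bta-miR-148a and bta-miR-21-5p, had 90768, 46188 and 116045 in June and 85936, 76279.9 and 103481 in December. The June values spanned those of December (log2 fold change −0.16, limma adjusted p = 0.7). Of 28 milk-abundant members tested 4 rose and 3 fell, beside 7.27% and 22.7% of all bta entries. Their median log2 fold change was −0.30. Of these, 2 rose without June library 2 or June library 3, and 7 fell without June library 1. The miRNAs that the study discusses come from earlier reports and in part from its own differential entries, so the list is not independent. Of these, 4 of 10 tested fell and 1 rose, beside 22.7% and 7.27% of all bta entries, and 7 fell without June library 1. The entry tested under miR-100 has the miR-99a sequence, so it does not measure miR-100. The study cites a report of lower bta-let-7b and bta-miR-16a in winter than in summer, and describes its own data as concurring with earlier reports. Here bta-miR-16a was lower in June (log2 fold change −3.05), and bta-let-7b did not pass (log2 fold change −0.85). In the miR-148 and miR-152 list (median log2 fold change 0.03, and −0.01 with libraries set to the same total) and in the miR-181 list (0.21) 0 of 3 members each passed.

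**Figure D3:**
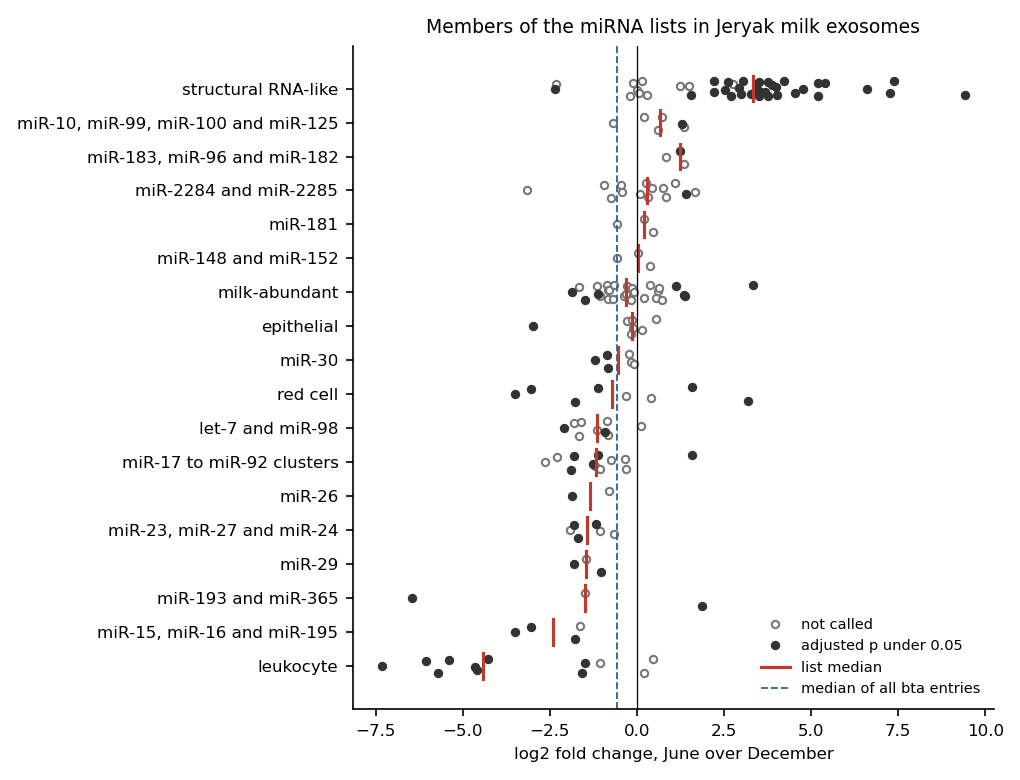
Log2 fold changes of June against December in Jeryak for the tested members of 18 lists, 1 point per member with filled points for those past the threshold, a bar for the median of the list and a dashed line for the median of all bta entries at −0.59. The leukocyte list lay lowest (median −4.43) and the list of names chosen as resembling structural RNA highest (median 3.34).

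Grouped by seed, 81 bta entries formed 28 groups of at least 2. At least 1 member fell in 15 groups and at least 1 rose in 2. Among all bta entries 22.7% fell and 7.27% rose. In 7 groups at least 2 members fell and 0 rose. These were AGCAGCA (3 of 4), GTAAACA of miR-30 (3 of 6), AAAGTGC of miR-17 (2 of 5) and AGCACCA of miR-29 (2 of 3). The others were GAGGTAG of let-7 (2 of 9), GTGCAAA of miR-19 (2 of 2) and TCACATT of miR-23 (2 of 2). Of the miR-19 entries, bta-miR-19b_1ss11CT differs from age-miR-19a_1ss23AT only at base 23, the base substituted in the latter name. It thus has the miR-19a sequence rather than that of miR-19b. One seed, ATTGCAC, held members of both directions. Under it bta-miR-25 and bta-miR-32 fell and bta-miR-363 rose. bta-miR-32 had 194, 194 and 133.2 in June and 446, 515 and 476 in December (log2 fold change −1.48, limma adjusted p = 0.016, and 0.056 without June library 3).

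Entries named after other species rose more often than they fell. Of 138 tested, 55 rose (39.9%) and 13 fell (9.42%), 49.3% together, and the median log2 fold change was 0.74. The share of these names in the summed norm value was 4.26 to 6.75% in June and 2.53 to 3.12% in December, without overlap (exact two-sided permutation test, p = 0.1, the smallest that 3 against 3 libraries allow). Of these entries 26 reached the minimum value in no December library and 2 in no June library. Of the other 110 entries 30 rose and 11 fell. mmu-miR-5124a_L-1R-1_1ss5CA had 2047, 5307 and 1976 in June and 0, 2.22 and 0 in December (log2 fold change 10.88, SE 0.85, limma adjusted p = 6.8e-07). mmu-miR-5106_R-4_1ss1AG had 2567, 6879 and 2746 in June and 2.75, 1.33 and 16.7 in December (log2 fold change 9.41, limma adjusted p = 1.3e-06). ggo-miR-4488 had 135, 177 and 469 in June and was listed at 0 in December (limma adjusted p = 2.0e-05). The months were far apart for each of these entries. Only the second is on the list of names chosen as resembling structural RNA, and that list was made by name, not by comparing sequences.

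A group of short entries ended in CCA, the bases added to the 3′ end of every tRNA. Of them, 3 are shown, the last being a predicted candidate, with the CCA in capitals.
hsa-miR-4454_L-2: atccgagtcacggcaCCA
hsa-miR-7977_1ss6AG: ttcccggccaacgcaCCA
PC-5p-4258_1795: agtcttctcctgggcaCCA
hsa-miR-4454 had 113, 54.7 and 125.8 in June and 11.5, 7.11 and 5.66 in December (log2 fold change 3.41, SE 0.79, limma adjusted p = 0.0033). hsa-miR-7977 had 83.2, 137 and 109 in June and 10.3, 3.87 and 6.20 in December (log2 fold change 3.88, limma adjusted p = 7.0e-04). PC-5p-4258_1795 had 771, 1366 and 2669.7 in June and 0, 0 and 1.62 in December (log2 fold change 10.001, limma adjusted p = 4.1e-07). All 3 were higher in each June library than in any December library. Of 17 distinct tested sequences that end in CCA, 10 rose, 2 fell and 5 did not pass. Not every such sequence moved, and hsa-miR-1260a had 88.7, 159 and 111 in June and 137, 91.7 and 109 in December (log2 fold change 0.06, limma adjusted p = 0.93). The 14 of 18 or 19 nt included all 10 that rose. Of all 152 tested sequences of that length 121 (79.6%) rose and 5 fell, whereas of the 304 that were longer 46 (15.1%) rose and 57 fell. These counts follow in part from the minimum, since 101 of the short sequences reached it in no December library and could only be higher in June. Among sequences that reached it in both months, 21 of 50 short ones rose and 4 fell, and 26 of 275 longer ones rose and 49 fell. Of the sequences that end in CCA, 12 reached it in both months, and of these 7 rose and 0 fell.

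Entries of other species that share their first 18 bases with a bta entry allowed a comparison of 3′ ends. There were 20 such pairs. In 10 neither entry passed, and in 0 did both pass. In 4 only the other-species entry fell, in 2 only the bta entry fell and in 4 only the bta entry rose. Some pairs bear names of different miRNAs, so they do not compare ends of 1 miRNA. Examples are bta-miR-27b with chi-miR-27a-3p (1 of the 4 where only the other-species entry fell), bta-miR-320a with hsa-miR-320b and bta-miR-502a with hsa-miR-500a-3p. The bta entries that rose were bta-miR-151-5p and bta-miR-320a alone. The call of bta-miR-151-5p (limma adjusted p = 0.035) was lost without December library 2 (0.12) and without other single libraries. The pairs below are shown because the ends differ by 1 substituted or added base, given in capitals, and were chosen after their values were seen.
bta-miR-141_R-1: taacactgtctggtaaagatg
mdo-miR-141-3p: taacactgtctggtaaagatgC
bta-miR-429_R-1: taatactgtctggtaatgccG
mdo-miR-429_R+1: taatactgtctggtaatgccA
bta-miR-22-3p_R+1: aagctgccagttgaagaactgT
mdo-miR-22-3p: aagctgccagttgaagaactgC
With positions counted from 1 at the 5′ end of the bta sequence, the miR-429 pair differs by G21A and the miR-22-3p pair by T22C, and mdo-miR-141-3p, named after the opossum, is 1 base longer. mdo-miR-141-3p was listed at 0 in June and had 75.0, 49.1 and 163 in December (limma adjusted p = 1.7e-05). bta-miR-141 had 12114, 5172 and 11994 in June and 9548, 7742 and 13955 in December (log2 fold change −0.15, limma adjusted p = 0.76). The end variant was thus listed in December alone while the bta entry overlapped between months. mdo-miR-429 was listed at 0 in June and had 40.1, 26.3 and 51.7 in December (limma adjusted p = 0.0011). bta-miR-429 had 592, 374.7 and 399.7 in June and 507, 311 and 418 in December (log2 fold change 0.14, limma adjusted p = 0.77). These miRNAs, miR-141 and miR-429, belong to the miR-200 family of epithelial miRNAs. mdo-miR-22-3p had 9.24, 29.5 and 41.9 in June and 369, 347 and 612 in December (log2 fold change −4.18, SE 1.17, limma adjusted p = 0.0096). bta-miR-22-3p had 6163, 11329 and 12492 in June and 6369, 5912 and 6425 in December (log2 fold change 0.62, limma adjusted p = 0.24). Each of these variants was at a small part of the level of its bta entry.

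Among the other entries that fell, chi-miR-140-5p, an arm known from cartilage in mice, had 12.9, 12.6 and 17.3 in June and 51.9, 195 and 132.6 in December (log2 fold change −2.88, limma adjusted p = 0.0032). mmu-miR-3535 had 0, 16.8 and 0 in June and 38.3, 287 and 44.7 in December. Both months were apart. The call of the second (log2 fold change −4.94, limma adjusted p = 0.012) was lost without December library 2 (0.057) or June library 3 (0.059).

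**Figure D4:**
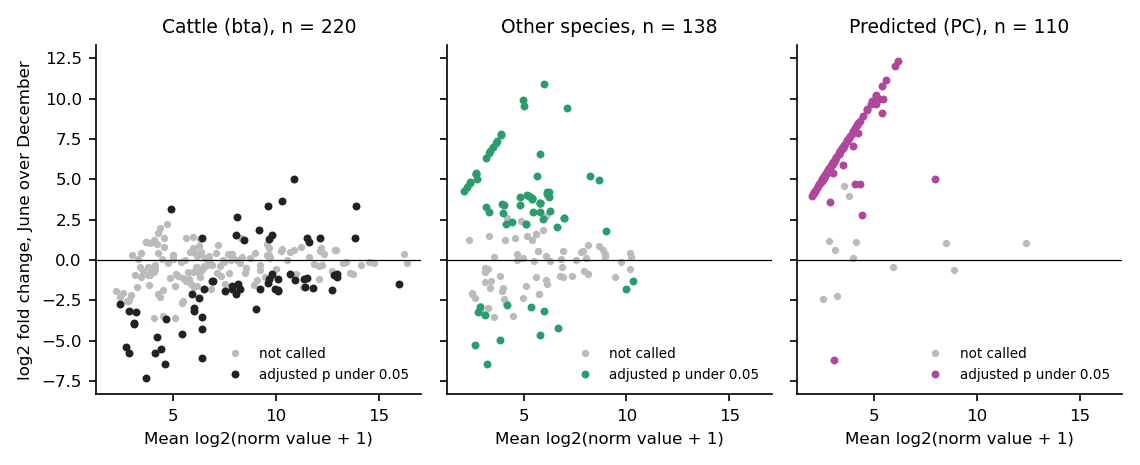
Log2 fold change of June against December in Jeryak (vertical axis) against the mean log2(norm value + 1) over the 6 Jeryak libraries (horizontal axis), 1 point per tested entry, in a panel each for bta, other-species and PC entries. The medians were −0.59, 0.74 and 5.90, and 16, 55 and 97 entries rose while 50, 13 and 1 fell.

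The predicted candidates were mostly June entries. Of 110 tested, 97 rose (88.2%) and 1 fell (0.909%), 89.1% together, and the months did not overlap for 90.9%. Since 96 of them reached the minimum value in no December library, these counts follow in large part from the minimum. Of the 13 that reached it in both months 2 rose and 0 fell. Their share of the summed norm value was 6.32 to 9.90% in June and 0.461 to 1.53% in December (exact two-sided permutation test, p = 0.1, the smallest possible). Candidates above 0 numbered 76 to 95 in December and more in every June library, up to 552. The number of bta entries above 0 was 234 to 313 in June and 372 to 494 in December. The December libraries, whose values reached further down, thus held fewer candidates and more bta entries. Of the candidates that rose, 84 were listed at 0 in all December libraries. Most were 18 or 19 nt long (85.6%), as were the candidates tested (82.7%) and all in the table (71.3%). The candidates with the largest change in each direction are shown, the first 3 having risen and the last having fallen.
PC-3p-803_8871: actgctgggggtgatggcg
PC-3p-970_7371: gcggtcgggcggcggcggtc
PC-3p-1741_4379: gcggtgggtccctggggc
PC-3p-6267_1215: aagaggatgtataggggc
PC-3p-803_8871 had 3681, 7354 and 4836 in June, PC-3p-970_7371 had 3330.3, 5718 and 3938, and PC-3p-1741_4379 had 2223, 3575 and 1537, and all were listed at 0 in December (limma adjusted p = 6.3e-08, 9.6e-08 and 9.6e-08). PC-3p-6267_1215 was listed at 0 in June and had 174, 74.9 and 26.4 in December (limma adjusted p = 2.0e-05). The candidates have no miRBase name, and whether they are miRNAs was not tested.

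Some tested sequences overlap each other and are not independent. Of 456 distinct sequences, 135 shared a run of 15 bases with another and formed 56 clusters. All members rose in 22 clusters and all fell in 2, and 0 held members that rose beside members that fell. In 12 clusters the fold changes had both signs.

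The month difference of the Jeryak was set against that of the yak for each of the 468 entries. The difference between the animals passed for 16 entries (3.42%), of which 1 was a bta entry, and 8 were listed at 0 in all yak libraries. It did not pass for the entries described above other than PC-3p-6267_1215, and a difference that did not pass is not shown to be absent. bta-miR-193a-3p in yak had 42.9, 76.4 and 42.9 in June and 313, 481 and 233 in December, and the difference of the log2 fold changes was −3.83 (SE 1.35, limma adjusted p = 0.21). mdo-miR-141-3p in yak was listed at 0 in June and had 96.3, 212 and 98.8 in December. The count of 16 rested on single libraries, with 5 without December Jeryak library 1, 8 without December yak library 3 and 31 without June yak library 1.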

How the data were processed

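Exosomal small RNA was read on a TruSeq library (single-end, 1x50). As deposited by the authors, each value is a norm value, a signal made with ACGT101-miR by multiplying the copy number of a sequence by 1 correction factor per library, after matching to miRBase 22.0. Norm values have no fixed total, and whole reads could not be recovered, so tests on counts were not used. The sources used here name no genome build, and the read depth is not part of the values. Results of 1 table line are not reported here.

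Samples were grouped by breed and month from the labels. The log2(norm value + 1) entered a linear model of limma 3.58.1 (R 4.3.3) with a variance trend and 1 mean per group over all 12 libraries, no replicate block and Benjamini-Hochberg adjustment over the 468 entries. A positive fold change means higher in June. The 1 added to each value draws the fold change of low entries towards 0. Where a June value of 0 stands for a low level that was not detected, the fall can instead be overstated. Fold changes against a group listed at 0 are not given, except where PC-3p-6267_1215 is set against the yak. The fit was tested on simulated data. Shares per library were compared by exact permutation tests. The permutation tests used scipy 1.17.1, and pandas 2.3.3 and numpy 2.4.6 under Python 3.11.15 read the table.

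Named are the 10 highest bta entries, in each direction up to 10 bta, 5 other-species and 3 PC entries with the largest change without overlap, from each list the 3 members of smallest p, the miRNAs the study discusses and the second arm of a named precursor. Entries outside the rule were added after their values were seen. The members and lists were chosen with earlier results of these data known. Alternatives were the pseudocount, the minimum value, the scaling, the weights, the libraries in the fit and the criteria of the study. The last were an unadjusted t-test and a 2-fold change or more, applied to the 468 entries tested here.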

Additional observations from a re-analysis of the deposited data

Results flagged for a closer look

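Of the 16 entries whose month difference in the Jeryak differed from that in the yak by the interaction term of limma, 3 are given here, 2 with fold changes of opposite sign in the animals and 1 described above. mmu-miR-5100_L+2R-1 had 14.8, 77.9 and 16.04 in June and 3.28, 0.381 and 2.96 in December in the Jeryak, and 26.4, 21.4 and 24.1 in June and 231, 150.4 and 275 in December in the yak. It was higher in June in one animal and lower in the other, with log2 fold changes of 3.27 and −3.10 and a difference of 6.37 (SE 1.09, limma adjusted p = 0.0067). hsa-miR-10400-5p had 31.4, 44.2 and 96.2 in June and 2.75, 3.74 and 4.99 in December in the Jeryak, and 11.6, 3.57 and 38.9 in June and 47.4, 54.8 and 143 in December in the yak. The log2 fold changes were 3.46 and −2.47, and their difference was 5.93 (SE 1.22, limma adjusted p = 0.017). PC-3p-6267_1215, described above, was listed at 0 in all yak libraries and in June in the Jeryak. The difference, −6.16 (SE 1.01, limma adjusted p = 0.0053), is thus the Jeryak change alone and depends on the pseudocount. The cause of these differences was not tested.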

How the results depend on the processing

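None of the 84 named entries changed sign where it passed in either fit. The median of the epithelial list changed sign with the scaling by the median ratio (−0.15 to 0.14), and that of the miR-148 and miR-152 list with the same total over all entries (0.03 to −0.01). Of 58 named entries that passed, 40 kept the call without any one Jeryak library and 28 in all settings. Among the latter were bta-miR-16a, bta-miR-26b, bta-miR-186, bta-miR-193a-3p, bta-miR-205 and mdo-miR-141-3p. With bta entries fitted alone 46 passed, of which 10 rose and 36 fell, the interaction passed for 0 (16 with all entries) and 32 list members passed (72 with all entries). By the criteria of the study, applied to the entries tested here, 136 passed, 100 higher and 36 lower. These held 6 and 25 bta entries, 56 and 0 PC entries and 34 list members. They are not the study's own counts, which gave a smaller total for this comparison, with more entries downregulated than upregulated. With no minimum value 9 bta entries rose, 21 other-species and 8 PC entries fell and the interaction passed for 9. With the minimum in at least 3 of all 12 libraries 22 other-species and 2 PC entries fell and the interaction passed for 34. The cause of these shifts was not tested, apart from the other number of entries tested. With one library left out in turn the entries that passed numbered 202 to 246, those that rose 153 to 177 and those that fell 42 to 75 (42 without December Jeryak replicate 2). Of bta entries 9 to 20 rose and 33 to 58 fell, of other-species entries 49 to 58 rose and 7 to 19 fell, and of PC entries 94 to 99 rose and 1 to 2 fell. The interaction passed for 5 to 31 and list members for 55 to 79. With the replicate number as a block, 168 rose and 69 fell, of which 163 and 55 were called without the block. The deviations of same-numbered libraries from their month means had correlations of −0.06, 0.18 and 0.05, and those of unlike numbers −0.22 to 0.23. These correlations run across entries that are not independent, and they cannot show whether libraries of the same number came from the same animal. Count tests were not run, since whole reads were not recovered. The lowest value above 0 differs with the month, the read depth itself was not used, and low values in June are the least certain.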
